A study of Mus musculus with 27 samples.

Results

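The 8 genes described here encode the enzymes that supply liver cells with the building blocks of hyaluronan, a matrix polysaccharide, or that draw on those building blocks: Ugp2, Ugdh, Uxs1, Gfpt1, Gfpt2, Gnpnat1, Pgm3 and Uap1. They were taken by name, through the Ensembl identifiers of the count table, and all 8 were among its 55414 genes. The counts came from whole liver homogenate of female Balb/c mice, 8 weeks old, and 27 libraries fell into 8 groups. The study asked which liver transcripts change when fibrosis is treated by 4-methylumbelliferone (4MU), an inhibitor of hyaluronan synthesis, or by siRNA against Has2, a hyaluronan synthase.

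The control group (4 libraries) received olive oil into the peritoneum and PBS into the tail vein. The paper states that control mice were also given 0.5% carboxymethyl cellulose by gavage, without naming the groups this covers. The 4MU group (3 libraries) received olive oil and 4MU by gavage, 600 mg/kg a day. The siHAS2-LNP group (3 libraries) received olive oil and Has2 siRNA in lipid nanoparticles through the tail vein, and the siLuc-LNP group (3 libraries) received the same particle with siRNA against luciferase, which has no target in mice. Fibrosis was induced by carbon tetrachloride (CCl4), a liver toxin, injected into the peritoneum over 2 weeks. The injured groups were CCl4 (2 libraries), CCl4 + 4MU (4), CCl4 + siHAS2-LNP (4) and CCl4 + siLuc-LNP (4). Both 4MU, in 0.5% carboxymethyl cellulose, and the siRNA particles were started 2 days before the first CCl4 injection. Dosing thus came before and during the injury. The siRNA was given 2 times a week, at 1 mg/kg and then at 0.5 mg/kg. The labels of the CCl4 group name no vehicle for gavage or tail vein. The labels number the replicates without saying that each was a separate mouse, so p-values measure the spread between these libraries. The CCl4 group holds 2 libraries, and every comparison with it rests on them.

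Hyaluronan synthases join 2 nucleotide sugars, UDP-glucuronate and UDP-N-acetylglucosamine (UDP-GlcNAc). Along the glucuronate branch, Ugp2 makes UDP-glucose, Ugdh oxidises it to UDP-glucuronate, and Uxs1 converts UDP-glucuronate into UDP-xylose, the sugar that starts the chains of other glycosaminoglycans. Along the hexosamine branch, Gfpt1 or Gfpt2 makes glucosamine-6-phosphate in the committed step, Gnpnat1 acetylates it, Pgm3 moves its phosphate, and Uap1 joins the product to UDP. Hepatocytes also spend UDP-glucose on glycogen and UDP-glucuronate on the conjugation of drugs, 4MU among them, while UDP-GlcNAc feeds protein glycosylation in every cell.

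The libraries held between 7044386 and 29425937 counts, with CCl4 + siHAS2-LNP replicate 4 the smallest. Levels are given as CPM, the count scaled to the library total and to the TMM factor of edgeR. The summed CPM of 5 hepatocyte markers, among them Alb and Apoa1, ranged from 72380 to 194700 over all libraries, and none of the 5 was at 0 in any group. Has2 itself had 2 counts in 1 CCl4 library, 1 count in 1 CCl4 + siLuc-LNP library and 0 in the rest, so the siRNA target could not be checked. Because whole liver was measured, fewer cells of a type and less RNA per cell cannot be told apart in any value below.

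All 8 genes are protein-coding, and their positions are those of the GRCm39 annotation. Ugp2 lies at chr11:21270384-21321276, Ugdh at chr5:65570551-65593805 and Uxs1 at chr1:43786126-43867044, all on the minus strand. Gfpt1 (chr6:87019801-87069179) and Gfpt2 (chr11:49684950-49729456) are on the plus strand, and Gnpnat1 (chr14:45613781-45690012), Pgm3 (chr9:86424316-86454680) and Uap1 (chr1:169967484-170002556) are on the minus strand. Exons of 3 members overlap those of well-counted genes on the opposite strand: 1937 bases of Pgm3 with Dop1a, 950 bases of Ugp2 with Vps54, and 4226 bases of Gnpnat1 with Styx. The libraries were made with a directional kit, but the strand setting of the counting is not given in the sources used here. If strand was not used, reads from these shared stretches could not be assigned to either gene. Processed pseudogenes with at least 90% identity over 150 bases or more exist for Gnpnat1, Ugdh and Uxs1, and each had a mean of under 2 counts.

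The promoters of the 4 genes that were higher in CCl4 livers than in controls are shown, because they moved together in that comparison. Each is the RefSeq window from 250 bases before to 50 bases after the start, listed for GRCm38.p6 and found by exact match in GRCm39, whose coordinates are given. Capitals mark ACGTG on either strand, which is part of the response elements of the stress factor XBP1 and of the hypoxia factor HIF.
Pgm3 promoter (chr9:86453846-86454145, minus strand): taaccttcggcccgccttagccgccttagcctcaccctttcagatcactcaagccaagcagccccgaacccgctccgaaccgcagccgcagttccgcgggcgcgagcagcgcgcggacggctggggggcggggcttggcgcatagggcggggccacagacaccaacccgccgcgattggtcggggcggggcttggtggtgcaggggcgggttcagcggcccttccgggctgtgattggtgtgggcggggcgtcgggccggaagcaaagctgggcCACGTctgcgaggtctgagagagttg
Uap1 promoter (chr1:170002484-170002783, minus strand): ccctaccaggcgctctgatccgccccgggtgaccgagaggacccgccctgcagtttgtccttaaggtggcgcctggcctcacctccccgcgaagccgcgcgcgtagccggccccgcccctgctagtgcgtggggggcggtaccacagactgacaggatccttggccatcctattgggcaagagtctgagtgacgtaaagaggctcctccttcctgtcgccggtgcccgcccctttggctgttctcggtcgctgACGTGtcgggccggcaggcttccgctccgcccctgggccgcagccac
Gfpt1 promoter (chr6:87019578-87019877, plus strand): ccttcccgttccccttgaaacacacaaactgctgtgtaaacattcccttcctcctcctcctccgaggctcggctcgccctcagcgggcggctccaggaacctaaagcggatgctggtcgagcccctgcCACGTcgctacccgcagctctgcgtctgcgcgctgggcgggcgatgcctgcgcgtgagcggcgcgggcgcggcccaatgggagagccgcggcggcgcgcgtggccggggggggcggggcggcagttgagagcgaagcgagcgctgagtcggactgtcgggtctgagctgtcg
Uxs1 promoter (chr1:43866950-43867249, minus strand): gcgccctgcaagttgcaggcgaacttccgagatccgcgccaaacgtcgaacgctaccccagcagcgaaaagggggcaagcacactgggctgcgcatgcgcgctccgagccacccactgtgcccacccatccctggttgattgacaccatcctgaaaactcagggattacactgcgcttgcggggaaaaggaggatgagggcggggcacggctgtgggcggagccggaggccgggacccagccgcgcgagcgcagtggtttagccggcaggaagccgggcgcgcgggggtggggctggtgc

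The word ACGTG occurred in the promoters of 5 of the 7 members that the RefSeq table holds, namely Pgm3, Uap1, Gfpt1, Gfpt2 and Ugp2. These were 5 of 8 member windows, against 19.6% of 32851 promoters of the same length. The member windows held 60.7% to 76% G or C bases, and the 19.6% was not matched for this. Uxs1, higher in CCl4 than in control, lacked the word, and Ugp2, which did not pass that test, held it. The word lay 24 bases after the start in Pgm3 and 3 bases after it in Uap1, and 122 bases before it in Gfpt1. The other words searched were CACGTG, TGACNNNGC (the core of the antioxidant response element) and the endoplasmic reticulum stress element, CCAAT and CCACG set 9 bases apart, all on both strands. TGACNNNGC was found at 2 places in the Ugdh promoter and in no other member, against 12.4% of all promoters. No member held CACGTG (7.15% of all promoters) or the stress element (0.119%). A match of letters is a description of the window and shows no binding.

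Ugp2 was the most abundant member per length of exon. Averaged over the 27 libraries, its level was 77.7 CPM per kilobase, against 15.8 for Ugdh, 3.17 for Uap1, 2.48 for Gfpt1, 1.67 for Uxs1 and 1.35 for Pgm3. Gnpnat1 (0.0662 CPM per kilobase) and Gfpt2 (0.0501) were near the limit of detection, with 1 to 22 and 1 to 54 counts per library. Both fell below the mean of 10 counts that a gene needed to be tested, so 6 of the 8 members were tested among 14114 genes. Of the 6217 exon bases of Gnpnat1, 4226 are shared with Styx, and the part of this in its low count was not tested. In the CCl4 group the hexosamine enzymes Gfpt1, Pgm3 and Uap1 stood at similar levels per length, 4.31, 4.26 and 4.84 CPM per kilobase, whereas in controls Pgm3 (0.693) was below Gfpt1 (2.34) and Uap1 (3.02).

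**Figure D1:**
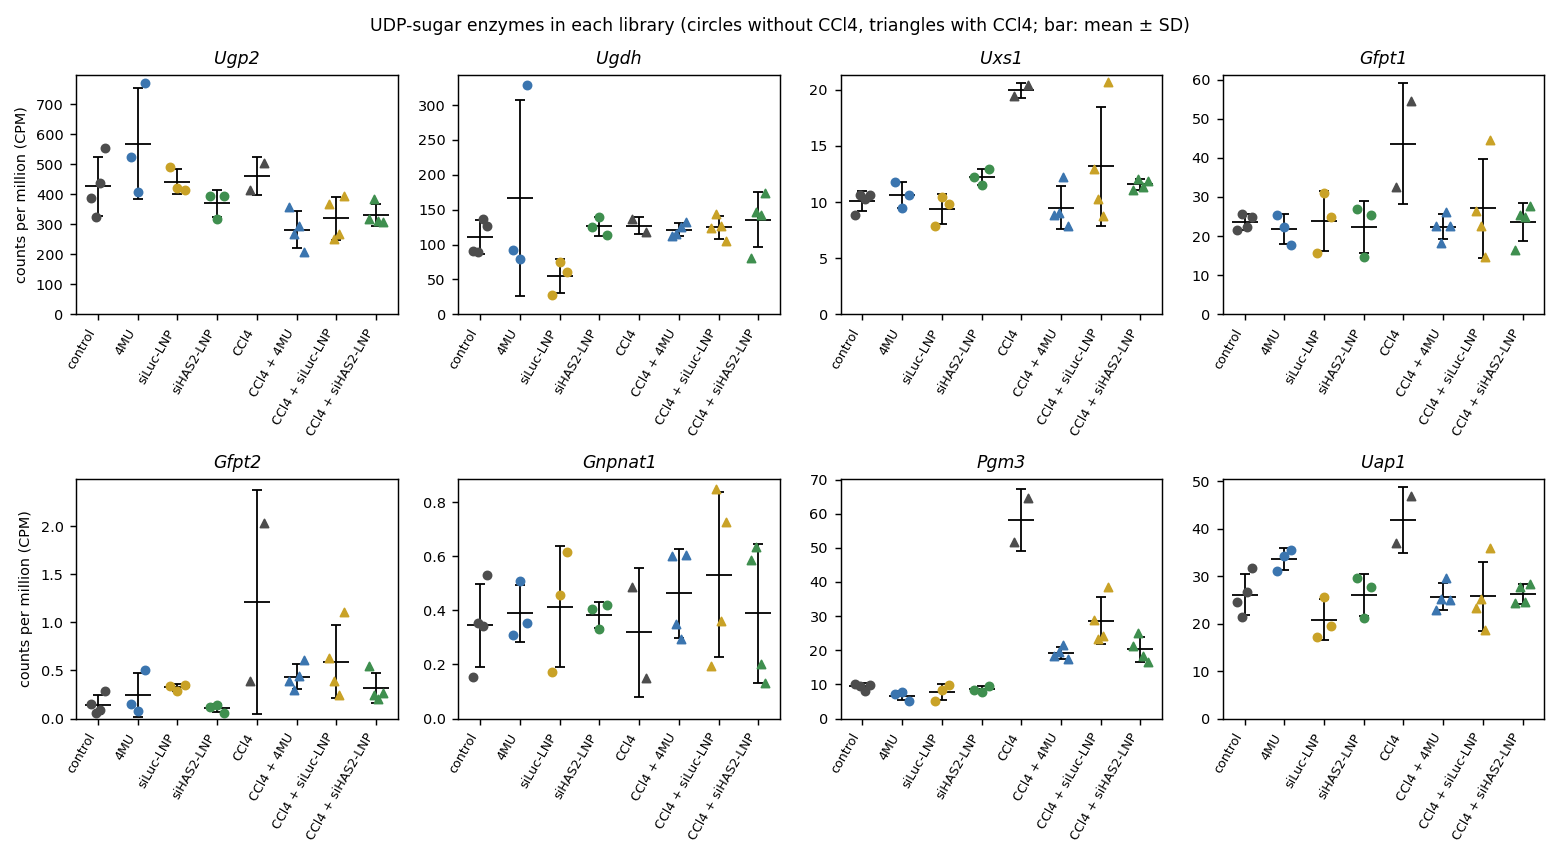
Level of each of the 8 enzymes (vertical axis, CPM from 0) in every library of the 8 groups, with the group mean and SD as bars; circles are libraries without CCl4 and triangles are libraries with CCl4. All 14 CCl4 libraries lie above all 13 others for Pgm3 only, and CCl4 alone is the highest group for Uxs1, Gfpt1, Gfpt2, Pgm3 and Uap1.

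In CCl4 livers 4 of the 6 tested enzymes were higher than in control livers: Pgm3 6.15-fold, Uxs1 1.98-fold, Gfpt1 1.85-fold and Uap1 1.60-fold. Ugdh and Ugp2 did not pass the test. In this comparison 33.9% of all tested genes were called at an adjusted p under 0.05, and 18% were called higher. The median log2 fold change of the 6 members was 0.78, against −0.02 over all tested genes.

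Pgm3, the phosphoacetylglucosamine mutase of the hexosamine branch, had 10.2, 9.61, 8.15 and 9.93 CPM in the 4 control libraries. It had 51.8 and 64.5 CPM in the 2 CCl4 libraries, and the ranges were far apart. The log2 fold change was 2.62 ± 0.21 (SE), with an adjusted p of 2.14e-09. Dop1a, whose exons overlap Pgm3 on the other strand, did not pass the test in the same comparison (log2 fold change −0.003 ± 0.21, adjusted p = 0.994).

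Uap1, which completes UDP-GlcNAc, had 24.6, 21.4, 26.7 and 31.8 CPM in the controls and 37.0 and 46.8 CPM in the CCl4 libraries. The groups did not overlap, but the gap between the highest control and the lower CCl4 library was narrow. The log2 fold change was 0.68 ± 0.20, with an adjusted p of 0.0103. Gfpt1, the entry enzyme of the branch, had 21.5, 25.7, 22.4 and 24.9 CPM in the controls and 32.6 and 54.5 CPM with CCl4. The controls were tightly grouped while the 2 CCl4 libraries differed widely. Its log2 fold change was 0.89 ± 0.31, with an adjusted p of 0.0299.

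Uxs1, the UDP-xylose synthase, had 8.85, 10.6, 10.2 and 10.7 CPM in the controls and 19.4 and 20.4 CPM in the CCl4 libraries. Both CCl4 libraries were close together and clear of the controls. The log2 fold change was 0.98 ± 0.22, with an adjusted p of 0.0013. Upstream of it, Ugdh had 90.5, 89.9, 136.5 and 127 CPM in the controls and 136 and 118 CPM with CCl4, so the groups overlapped (log2 fold change 0.20 ± 0.40, adjusted p = 0.733). Ugp2 had 388, 324, 437 and 555 CPM in the controls and 415 and 504.5 CPM with CCl4, and these also overlapped (0.11 ± 0.24, adjusted p = 0.752).

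Without CCl4 replicate 2, 2 members passed the test instead of 4. Pgm3 and Uxs1 were still called, whereas Gfpt1 fell to a log2 fold change of 0.49 (adjusted p = 0.431) and Uap1 to 0.52 (adjusted p = 0.174). The calls of Gfpt1 and Uap1 thus depended on that library, although CCl4 replicate 1 was above all 4 controls for both. Fits without CCl4 replicate 2 leave 1 CCl4 library, and fewer genes over the whole table were called in each comparison with CCl4. The Gfpt1 call was also lost without control replicate 1 (adjusted p = 0.0594), without control replicate 3 (adjusted p = 0.0552) and with limma-voom (adjusted p = 0.0507).

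Gfpt2 and Gnpnat1 are given as counts. Gfpt2, the isoenzyme of Gfpt1, had 3, 1, 2 and 7 counts in the controls and 8 and 54 counts in the CCl4 libraries. The higher CCl4 value was again replicate 2. In a fit with no filter on low counts, which called 13.4% of 31177 genes, the log2 fold change of Gfpt2 was 2.98 ± 0.64 (adjusted p = 0.000153). Gnpnat1 had 3, 6, 8 and 13 counts in the controls and 10 and 4 counts with CCl4, and a change was not detectable at such counts (−0.17 ± 0.68).

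The same injury could be followed in 3 further arms, in which the animals with and without CCl4 received the same agent. Pgm3 rose in every arm. It had 7.16, 7.65 and 5.26 CPM in the 4MU group and 18.4, 19.5, 21.4 and 17.4 CPM in CCl4 + 4MU (2.86-fold, adjusted p = 7.12e-06). It had 5.14, 8.25 and 9.97 CPM in the siLuc-LNP group and 29, 23.3, 24.2 and 38.4 CPM in CCl4 + siLuc-LNP (3.68-fold, adjusted p = 3.31e-07). The groups did not overlap in either arm. It had 8.47, 7.73 and 9.68 CPM in the siHAS2-LNP group and 21.1, 24.9, 18.4 and 16.7 CPM in CCl4 + siHAS2-LNP (2.36-fold, adjusted p = 0.000162). Over all arms the 14 CCl4 libraries ran from 16.7 to 64.5 CPM and the 13 others from 5.14 to 10.2 CPM. In the mean of the 4 arms Pgm3 was 3.52-fold higher with CCl4 (log2 fold change 1.81 ± 0.10, adjusted p = 2.28e-13).

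The mean over the 4 arms called 3 members, in a comparison that called 51.7% of all tested genes. Besides Pgm3, Uxs1 was higher (1.24-fold, adjusted p = 0.0154) and Ugp2 was lower (0.767-fold, adjusted p = 0.00587). The log2 fold changes of Uxs1 in the single arms were 0.98 ± 0.22 without treatment, −0.16 ± 0.20 with 4MU, 0.50 ± 0.20 with siLuc-LNP and −0.08 ± 0.20 with siHAS2-LNP. Counting the 14 CCl4 libraries against the 13 others, without equal weight for the arms, left Uxs1 at 0.26 with an adjusted p of 0.113. Gfpt1 (0.30 ± 0.15, adjusted p = 0.0923) and Uap1 (0.15 ± 0.09, adjusted p = 0.174) did not pass the test in the mean of the arms. Gfpt2, in the fit with no filter, was higher in it (log2 fold change 1.56 ± 0.32, adjusted p = 4.08e-05, with 24.5% of genes called).

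Ugp2, which also supplies glycogen synthesis, was lower with CCl4 in the mean of the arms, where Pgm3 was higher. The arms differed, and in CCl4 against control its log2 fold change was 0.11 ± 0.24 (adjusted p = 0.752). Within the 4MU arm it had 523, 408.5 and 770.1 CPM without CCl4 and 356, 267, 294 and 208 CPM with it. All 4 CCl4 + 4MU libraries were below all 3 of the 4MU group. The fold was 0.496 (adjusted p = 0.00119), in a comparison that called 23.6% of genes and, of the members, Ugp2 and Pgm3 alone. Over all arms, 8 of the 14 CCl4 libraries lay below the lowest of the 13 others (317.4 CPM). The nearest of the 8, CCl4 + siHAS2-LNP replicate 1, was all but level with it at 317.3 CPM. Within the siLuc-LNP arm the log2 fold change of Ugp2 was −0.47 ± 0.21 (adjusted p = 0.113), and within the siHAS2-LNP arm it was −0.16 ± 0.21 (adjusted p = 0.675).

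Ugdh was called in the siLuc-LNP arm, where 24.1% of genes were called and Ugdh and Pgm3 were the members among them. It had 28.1, 75.6 and 61.1 CPM in the siLuc-LNP group and 124, 144, 127 and 104.5 CPM in CCl4 + siLuc-LNP. The siLuc-LNP libraries were the low ones, and replicate 1 was the lowest of all 27. The fold was 2.27 (adjusted p = 0.0211), and without siLuc-LNP replicate 1 it was no longer called (log2 fold change 0.87, adjusted p = 0.127). Within the siHAS2-LNP arm Pgm3 was the only member called, where 12.7% of genes were.

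**Figure D2:**
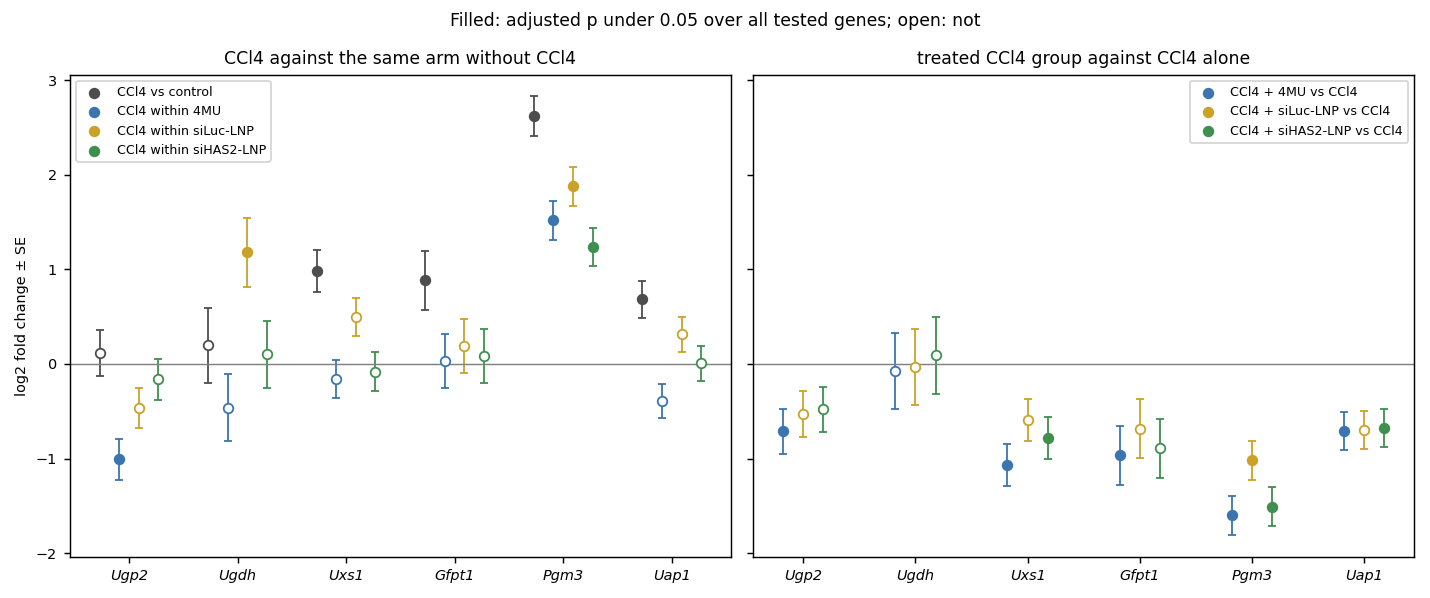
Log2 fold change with its SE (vertical axis) of the 6 tested enzymes, on the left for CCl4 against the same arm without CCl4, on the right for each treated CCl4 group against CCl4 alone; filled points had an adjusted p under 0.05. Pgm3 is filled in all 7 comparisons, from 2.62 in CCl4 against control to −1.60 in CCl4 + 4MU against CCl4, and the Ugdh points of the right panel lie near 0.

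Among the injured livers, 5 of the 6 tested enzymes were lower than in CCl4 alone with 4MU, 3 with siHAS2-LNP and 1 with siLuc-LNP. The 3 comparisons share the same 2 CCl4 libraries, which are also those compared with control above. Against CCl4 alone, CCl4 + 4MU livers were lower in 5 of the 6 tested members, in a comparison that called 18.1% of genes and 9.95% as lower. The fold was 0.330 for Pgm3 (adjusted p = 0.000179), 0.476 for Uxs1 (adjusted p = 0.00222), 0.512 for Gfpt1 (adjusted p = 0.0326), 0.613 for Uap1 (adjusted p = 0.0164) and 0.611 for Ugp2 (adjusted p = 0.0396). Ugdh, the source of UDP-glucuronate, did not pass the test (0.951, adjusted p = 0.918).

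The CPM values of the CCl4 + 4MU libraries showed the same separation. Uxs1 had 8.81, 9.02, 12.3 and 7.86 CPM with 4MU, all below both CCl4 libraries. Gfpt1 had 22.6, 18.2, 26.03 and 22.5 CPM, and Uap1 had 22.9, 25.2, 29.6 and 25.02 CPM, again below both CCl4 libraries. Ugdh had 112, 115, 125 and 132 CPM and overlapped CCl4. Without CCl4 replicate 2, Pgm3 was the 1 member still called, and without CCl4 + 4MU replicate 2 or replicate 4, 3 members were. The Ugp2 call was lost in 7 alternatives, among them limma-voom (adjusted p = 0.152).

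In CCl4 + siHAS2-LNP livers 3 members were lower than in CCl4 alone, where 14.3% of genes were called and 7.28% as lower. Pgm3 fell to 0.350-fold (adjusted p = 0.00031), Uxs1 to 0.580-fold (adjusted p = 0.0198) and Uap1 by 0.68 on the log2 scale (adjusted p = 0.0254). Uxs1 had 11.03, 12.1, 11.3 and 11.9 CPM, a tight group below both CCl4 libraries. Uap1 had 24.4, 27.6, 24.6 and 28.4 CPM, also below both. Gfpt1 had 16.5, 25.5, 24.8 and 27.6 CPM and missed the threshold (0.539-fold, adjusted p = 0.0546), although the groups did not overlap. It was called in 6 of 13 alternatives, DESeq2 among them (adjusted p = 0.0358), and the 13 adjusted p lay between 0.0257 and 0.556. Gfpt2, with 14, 5, 5 and 2 counts, had a log2 fold change of −1.92 ± 0.61 in the fit with no filter, which called 4.78% of genes (adjusted p = 0.0415). Without CCl4 replicate 2, Pgm3 alone was still called.

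Pgm3 was also lower in CCl4 + siLuc-LNP, the control particle, than in CCl4 alone (0.494-fold, adjusted p = 0.0313), in a comparison that called 0.262% of genes. The other 5 tested members had log2 fold changes of −0.03 (Ugdh) to −0.70 (Uap1) and did not pass the test. CCl4 + siLuc-LNP replicate 4 differed from the other libraries of its group: Uxs1 had 12.95, 10.3, 8.76 and 20.7 CPM, Gfpt1 had 26.5, 22.5, 14.8 and 44.6 CPM, and Uap1 had 23.4, 25.1, 18.7 and 35.9 CPM. Replicate 4 was the highest of the 4 for each, and also for Pgm3. Without it, 4 members were called lower than in CCl4, namely Uxs1, Gfpt1, Pgm3 and Uap1. The calls over all 14114 tested genes then rose from 37 to 1054, so genes outside the members gained calls as well. Without any 1 of the other 3 replicates, no member was called.

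Between the 2 siRNAs in injured livers no member passed the test, where 1.08% of genes did. Pgm3 had the largest difference of the 6, 0.708-fold in CCl4 + siHAS2-LNP against CCl4 + siLuc-LNP, with a log2 difference of −0.50, a 95% interval of −0.86 to −0.13 and an adjusted p of 0.152. The intervals of the other 5 members all included 0, the widest being that of Gfpt1 (−0.75 to 0.33) and Ugdh (−0.56 to 0.80). The Pgm3 ranges, 16.7 to 24.9 CPM with Has2 siRNA and 23.3 to 38.4 CPM with luciferase siRNA, overlapped, since 1 library with Has2 siRNA lay above 2 with luciferase siRNA. By edgeR 1 member had an unadjusted p under 0.05, and DESeq2 and limma-voom called 0 members.

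Without injury, none of the treatments changed a member past the threshold in edgeR, DESeq2 or limma-voom, and in each comparison 1 member had an unadjusted p under 0.05 in edgeR. In 4MU against control, edgeR called 0.00709% of all genes, and Pgm3 (0.709-fold, adjusted p = 0.611) was that member. Its 3 libraries with 4MU lay below all 4 controls. The mean of Ugdh was 167 ± 140 CPM (SD, n = 3) in the 4MU group, because replicate 3 had 329 CPM and the other two had 92.6 and 79.4 CPM. Ugp2 was also highest in that library. Uap1 had 31.1, 34.3 and 35.5 CPM with 4MU, near or above the highest control (1.29-fold, adjusted p = 0.747).

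In siLuc-LNP against control, 0.205% of genes were called. Ugdh was lower in all 3 siLuc-LNP libraries than in all 4 controls, at 0.495-fold, but did not pass the correction (adjusted p = 0.498). In siHAS2-LNP against siLuc-LNP, 0.0638% of genes were called, and Ugdh, with 126, 140 and 113 CPM, was 2.3-fold higher without passing it (adjusted p = 0.295). Its siHAS2-LNP values lay within the range of the other groups, and the siLuc-LNP group was the only one whose Ugdh range (28.1 to 75.6 CPM) lay below those of all others.

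The difference between the 4MU change in injured and in uninjured liver was tested as an interaction, which called 5.65% of genes. It was below 0 and past the threshold for 4 members. The log2 difference was −1.14 ± 0.30 for Uxs1 (adjusted p = 0.0314), −1.10 ± 0.29 for Pgm3 (adjusted p = 0.0317), −1.07 ± 0.27 for Uap1 (adjusted p = 0.0289) and −1.12 ± 0.32 for Ugp2 (adjusted p = 0.0407). Gfpt1 (−0.85 ± 0.42, adjusted p = 0.206) and Ugdh (−0.66 ± 0.53, adjusted p = 0.446) did not pass. None of the 4 was called without CCl4 replicate 2 or without CCl4 + 4MU replicate 4, and the number of genes called overall was then 21 and 238, against 797 with all libraries. The log2 differences of the 4 ran from −0.91 to −1.13 without the first library and from −1 to −1.06 without the second. CCl4 + 4MU replicate 4 stood apart in its 4 cholangiocyte markers, which summed to 121 CPM against 5.80 to 10.96 CPM in the rest of its group, and the part of this in the result was not tested. Of the 4, 1 was called without 4MU replicate 3 or CCl4 + 4MU replicate 1. The interaction of Has2 siRNA with injury, set against luciferase siRNA, called 0.0354% of genes and no member, with 2 members at an unadjusted p under 0.05 in edgeR and 0 called by DESeq2 or limma-voom. The 2 were Pgm3 (−0.64 ± 0.28, adjusted p = 0.387) and Ugdh (−1.08 ± 0.50, adjusted p = 0.422).

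Ordered by group mean, Pgm3 fell into 3 levels. The 4 uninjured groups were lowest (6.69 CPM in 4MU to 9.46 in control). Each of them overlapped the next in the order, but the 4MU range lay below those of siHAS2-LNP and control. The 3 treated CCl4 groups came next (19.2 with 4MU, 20.3 with siHAS2-LNP, 28.7 with siLuc-LNP), each overlapping its neighbour among the 3. CCl4 alone (58.2) stood above all. For Uap1, CCl4 alone (41.9 CPM) and the 4MU group (33.6) were highest by mean. CCl4 alone was clear of all other groups in range, but the 4MU group overlapped CCl4 + siLuc-LNP, which reached 35.9 CPM, and control, which reached 31.8 CPM. For Ugp2, Uxs1, Gfpt1, Gfpt2 and Gnpnat1 every group overlapped its neighbour in the order.

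Cell cycle transcripts were also high in the libraries in which Pgm3 was high. The summed CPM of Mki67, Top2a, Cdk1 and Ccnb1 ranged from 5.19 to 10.03 in controls, from 1.33 to 4.097 with 4MU, from 10.5 to 16.7 with siLuc-LNP and from 18.9 to 25.2 with siHAS2-LNP. It ranged from 244 to 508 in CCl4, from 37.4 to 167 in CCl4 + 4MU, from 125 to 422 in CCl4 + siLuc-LNP and from 122 to 144 in CCl4 + siHAS2-LNP. All 4 genes were called higher in CCl4 against control, as were 18% of all tested genes. Against CCl4, all 4 were called lower in CCl4 + 4MU (9.95% of all tested genes). In CCl4 + siHAS2-LNP 2 of 4 were lower (7.28% of all), and in CCl4 + siLuc-LNP 0 of 4 were (0.205% of all). Spearman's rho between Pgm3 and this sum was 0.907 over 27 libraries, 0.877 over the 14 with CCl4 and 0.313 over the 13 without. Over the 14 CCl4 libraries other members also followed the sum, with a rho of 0.793 for Uxs1, 0.675 for Ugp2 and 0.556 for Gfpt1, and the rho was −0.240 for Ugdh. Points of 1 group share their treatment, and the values are a description.

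**Figure D3:**
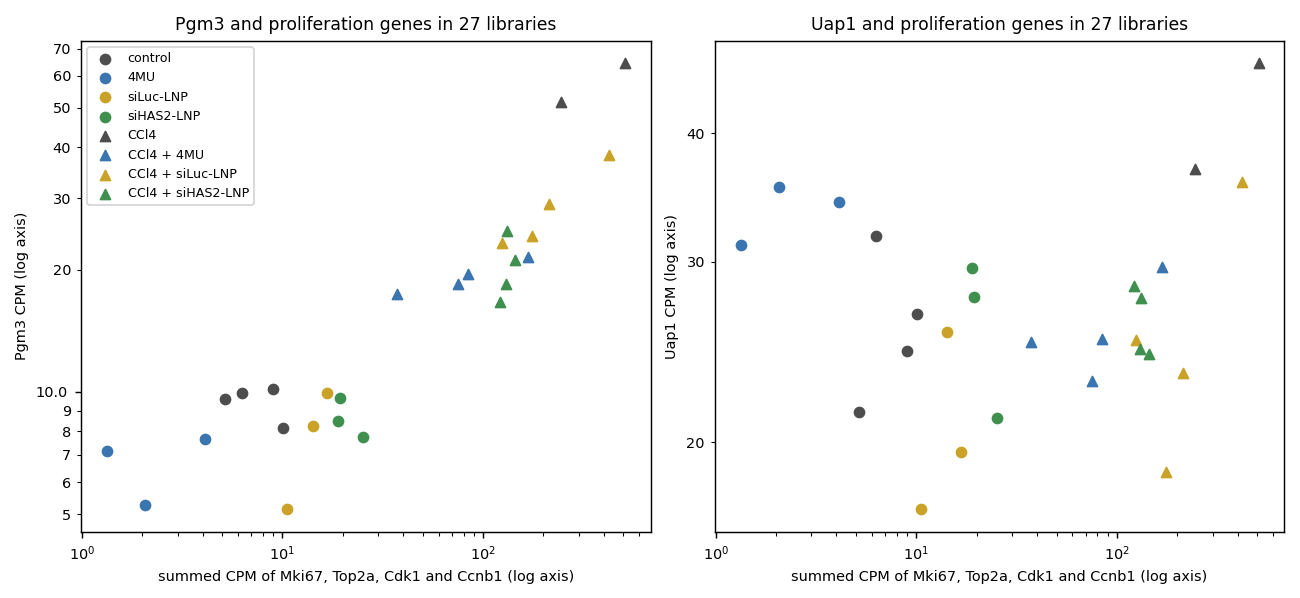
Pgm3 (left) and Uap1 (right) in CPM against the summed CPM of 4 cell cycle genes, each point 1 of 27 libraries and all axes logarithmic. Over the 14 CCl4 libraries the rho with the sum was 0.877 for Pgm3 and 0.424 for Uap1, over the 13 others 0.313 and −0.544, and over all 27 libraries 0.907 and 0.0604.

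Some markers of other liver cells moved in the same comparisons. Over all tested genes, 18% were called higher and 15.9% lower in CCl4 against control. Against CCl4, 8.14% were called higher and 9.95% lower in CCl4 + 4MU, and 7.28% lower in CCl4 + siHAS2-LNP. The summed CPM of 8 genes of stellate cells and myofibroblasts, none of them at 0 in any group, was 69.3 to 117 in controls, 556 to 748 in CCl4, 200 to 523 in CCl4 + 4MU, 417 to 922 in CCl4 + siLuc-LNP and 238 to 377 in CCl4 + siHAS2-LNP. Of the 7 that were tested, 6 were higher in CCl4 against control, 0 were lower in CCl4 + 4MU against CCl4 and 3 were lower in CCl4 + siHAS2-LNP. The rho of the sum with Pgm3 was 0.873 over the 14 CCl4 libraries, with Uxs1 0.666 and with Ugp2 0.565. Of 5 lymphocyte markers, 0 were called in CCl4 against control. Over the same 14 libraries their sum had a rho of 0.626 with Pgm3, 0.618 with Uxs1, 0.701 with Ugp2 and −0.332 with Ugdh. For Pgm3 the rho was 0.371 with the endothelial sum, 0.0418 with the cholangiocyte sum and 0.0769 with the neutrophil sum. The summed hepatocyte markers were 157000 to 194700 CPM in controls and 72380 to 127100 CPM in CCl4, and 2 of the 5 were called lower. In CCl4 + 4MU they were 145300 to 173900 CPM, above both CCl4 libraries, and 2 of the 5 were called higher than in CCl4. Over the 14 CCl4 libraries their sum had a rho of −0.732 with Gfpt1, −0.710 with Uxs1, −0.692 with Ugp2 and −0.459 with Pgm3. Most of this sum was Alb, with a mean of 2616000 counts per library against 272800 for Apoa1, the next highest. The 7 Kupffer cell and macrophage markers summed to 261.5 to 456 CPM in controls, a range that held both CCl4 libraries (344.5 to 382 CPM). In CCl4 against control 2 of them were called higher and 1 lower. Their sum was 244 to 449 CPM in CCl4 + siLuc-LNP. It was 404 to 641 CPM in CCl4 + 4MU, where 0 of them were called, and 150 to 243 CPM in CCl4 + siHAS2-LNP, where 4 of them were called lower. The part of dividing, stellate, macrophage, lymphocyte or hepatocyte cells in the changes of the enzymes was not tested.

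The genes whose pattern over the 27 libraries was most like that of each tested member differed between members. For Pgm3 they were Cdc25c (rho 0.952), Tedc1 (0.946) and Fam83d (0.946), of which Cdc25c encodes a phosphatase of mitotic entry. For Gfpt1 they were Cstf2 (0.841), Rab1a (0.830) and Lman1 (0.816); Rab1a and Lman1 act in transport from the endoplasmic reticulum to the Golgi. For Uap1 they were Dld, Csnk1g3 and Cand1 (0.819 to 0.790), for Uxs1 Abce1, Cse1l and Slc5a3 (0.867 to 0.839), and for Ugp2 Pals2, Zfp91 and Plaa (0.861 to 0.812). For Ugdh they were Entpd5 (0.827), Cdcp1 (0.754) and Cyp2j6 (0.695). Ugdh and Ugp2, which act in succession, had a rho of −0.238.

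The remaining genes of these routes are given by list, and their counts in CCl4 against control stand beside 33.9% called among all tested genes. Of 13 genes between glucose and UDP-glucose or UDP-galactose, 5 were higher and 2 lower in CCl4 against control. The smallest adjusted p belonged to Pgm2, a phosphoglucomutase (2.39-fold, adjusted p = 2.14e-05). Of 11 genes of hexosamine salvage and turnover, 2 were higher and 2 lower, with Nans (2.32-fold, adjusted p = 3.67e-06) and Cmas (1.38-fold, adjusted p = 0.0167), which make and activate sialic acid, above control and Gnpda1, which breaks down glucosamine-6-phosphate, below it (0.468-fold, adjusted p = 0.00208).

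Of 8 genes that use glucuronate outside hyaluronan, 2 were higher and 4 lower in CCl4. Gusb, the lysosomal glucuronidase, was higher (2.28-fold, adjusted p = 2.05e-05). Gulo (0.311-fold, adjusted p = 4.94e-05) and Rgn (0.401-fold, adjusted p = 0.00051), both of ascorbate synthesis, were lower. Among 14 tested genes that build other glycosaminoglycans, Extl2 was 1.58-fold higher (adjusted p = 0.00878), 12 did not pass, and Xylt1 is given as counts only. Xylt1, the xylosyltransferase that takes up the product of Uxs1, had 0, 2, 2 and 2 counts in the controls and 10 and 32 counts in CCl4. Its mean of 10 counts over all libraries just met the limit for testing, through the groups in which it is high. Its test is therefore not used as a result. Of 4 nucleotide sugar transporters Slc35d2 was lower (0.566-fold, adjusted p = 0.00236), and of 8 N-glycan enzymes that take UDP-GlcNAc, Alg14 (1.62-fold, adjusted p = 0.0232) and Mgat4a (2.22-fold, adjusted p = 0.0376) were higher.

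In CCl4 + 4MU against CCl4, 8.14% of all tested genes were called higher and 9.95% lower. The glucose list of 13 genes had 1 higher and 3 lower, and the smallest adjusted p was that of Pgm2l1 (0.397-fold, adjusted p = 0.00541). The hexosamine list had 3 lower genes, Cmas (0.587-fold, adjusted p = 0.00136), Nans (0.619-fold, adjusted p = 0.00629) and Oga (0.652-fold, adjusted p = 0.0197), and 1 higher. The median log2 fold change was −0.84 for the 6 members, 0.22 for the glucose list, 0.04 for the hexosamine list and 0.04 for all tested genes.

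Ratios inside a library do not depend on how the library is scaled. The log2 ratio of Gfpt2 to Gfpt1 counts was −5.75 ± 0.62 (SD) in the 14 CCl4 libraries and −6.88 ± 1.01 in the 13 others. The difference was 1.13 (2-sided permutation test, p = 0.00197, Benjamini-Hochberg p = 0.00394 over the 2 ratios tested), and it was above 0 in each arm, from 0.47 with siLuc-LNP to 1.77 without treatment. Gfpt1 had far more counts in every library, and the Gfpt2 counts behind the ratio were as low as 1. The log2 ratio of Ugdh to Uxs1 was 3.38 ± 0.54 with CCl4 and 3.24 ± 0.71 without (difference 0.14, permutation p = 0.579, Benjamini-Hochberg p = 0.579). It changed sign between arms, from −0.76 without treatment to 0.87 with siLuc-LNP.

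**Figure D4:**
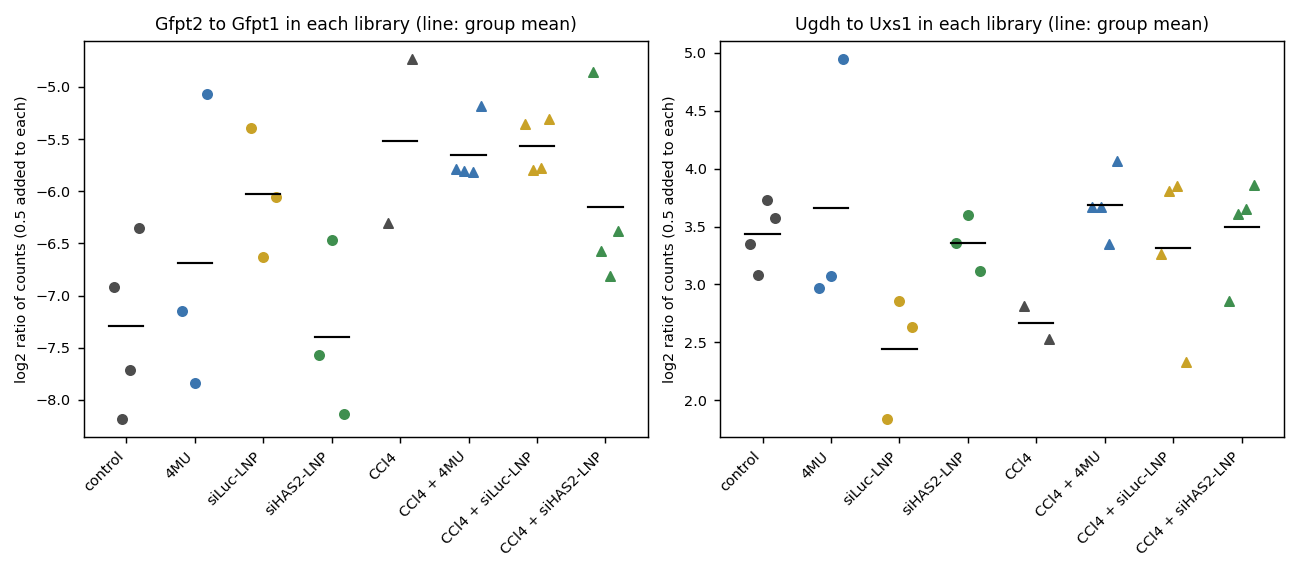
Log2 ratio of counts of Gfpt2 to Gfpt1 (left) and of Ugdh to Uxs1 (right) in each library, with 0.5 added to each count and a line at each group mean; circles are without CCl4 and triangles with CCl4. On the left, the group means with CCl4 (−6.16 to −5.52) are above that of the same arm without CCl4, and on the right, the 4MU library at the top is replicate 3, which also had the highest Ugdh level.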

How the data were processed

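Liver RNA of 27 mouse libraries was sequenced as read pairs. The authors trimmed reads with Trimmomatic 0.39, aligned them to GRCm39 with HISAT2 (version not given in the sources used here) and deposited raw counts per gene from featureCounts without multi-mapping reads. Depth was 7044386 to 29425937 counts per library. Gene names came from GENCODE vM39, which held 54749 of the 55414 identifiers. Groups followed the labels.

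Counts were tested with edgeR 4.0.16 in R 4.3.3: TMM factors, 1 robust quasi-likelihood fit of 8 group means, genes averaging 10 counts or more over the libraries, and Benjamini-Hochberg adjustment over 14114 genes at 0.05. The SE of a log2 fold change was set so that the square of their quotient equals F. Alternatives were DESeq2 1.42.0, limma 3.58.1 (voom with quality weights), DESeq2 size factors, no filter, filterByExpr, the compared groups alone, the replicate number as a block, and each library left out. The procedure was tested on simulated data. Replicate pairs differed by 15.9 to 458 times the sampling noise (chi-square per degree of freedom over genes), so none was a repeated library. Ratios were compared by a permutation test with 100000 resamples in numpy 2.4.6, with 0.5 added to each count. Similar genes were ranked by Spearman's rho of log2 CPM (0.1 added), predicted and unnamed genes left out, and the 3 highest were named. Near copies were sought with blastn 2.17.0 among annotated transcripts. All 8 members were described in every comparison, and at most 3 genes of a pathway list, those with the smallest adjusted p. Some genes of the lists are counted but not reported here by name. The members and lists were chosen with earlier results of these data known.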

Additional observations from a re-analysis of the deposited data

Results flagged for a closer look

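The 4MU change differed between injured and uninjured liver for 4 members by the interaction test of edgeR. The log2 difference was −1.14 for Uxs1, −1.10 for Pgm3, −1.07 for Uap1 and −1.12 for Ugp2. These 4 share the CCl4, CCl4 + 4MU, 4MU and control libraries, and none was called without CCl4 replicate 2 or without CCl4 + 4MU replicate 4, while all 4 stayed below 0.

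Ugp2 in CCl4 + siHAS2-LNP had 1 library apart from the rest: replicate 2, at 383 CPM, lay above the other 3 by more than Dixon's 95% limit allows. Of 32 combinations of member and group of 4 libraries that were examined, this was the 1 found, and chance alone gives about 1 in 20.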

How the results depend on the processing

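No called value changed sign under any alternative run. The count of members called in CCl4 + siLuc-LNP against CCl4 was 1 and became 0 with the replicate block and 0 with only the compared groups; in CCl4 within siLuc-LNP it was 2 and became 1 with no filter on low counts; in CCl4 + siHAS2-LNP against CCl4 it was 3 and became 5 with filterByExpr, Gfpt1 (adjusted p = 0.049) among those added. Leaving out 1 library at a time, the count ran from 2 to 4 in CCl4 against control, from 1 to 3 in CCl4 within siLuc-LNP, from 1 to 4 in CCl4 + 4MU against CCl4, from 1 to 3 in CCl4 + siHAS2-LNP against CCl4, from 0 to 4 in CCl4 + siLuc-LNP against CCl4 and from 0 to 4 in the interaction of 4MU with CCl4. Pgm3 kept its call under every alternative in CCl4 against control (adjusted p at most 1.48e-06), in the 4MU, siLuc-LNP and siHAS2-LNP arms (at most 0.00279), in the mean of the arms (at most 1.64e-08), and in CCl4 + 4MU (at most 0.0135) and CCl4 + siHAS2-LNP (at most 0.0123) against CCl4. Same-numbered libraries did not deviate together: in no comparison with 3 or more shared numbers were all correlations over 0.1, so the numbers are not treated as pairs, and the replicate block moved no other count of members by over 1.5 times. The log2 ratio of Gfpt2 to Gfpt1 differed by 1.02 to 1.28 between CCl4 and other libraries under every setting. The cause of these changes was not tested. Low counts limit Gfpt2 and Gnpnat1, each with as few as 1 count in a library. The part of the overlap with Styx in the low count of Gnpnat1 was not tested.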
